A study of Homo sapiens with 12 samples.

Results

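Small nucleolar RNAs (snoRNAs) and small Cajal body-specific RNAs (scaRNAs) were examined in the human hepatic stellate line LX-2, which is cultured to study liver fibrosis. The members were chosen by annotation and raw count, as snoRNA or scaRNA genes whose counts summed to at least 24 over all 12 libraries, which left 147 of 992 such genes among 58735 genes in the table. The rule used the level of a gene over all libraries and no difference between groups. A gene with few counts could still pass it through the groups in which it was high. By name, 46 were SNORA genes, 57 were SNORD genes and 8 were SCARNA genes. Another 36 carried an Rfam family number in place of a gene symbol and are called RF-named here. The 4 genes just inside the threshold, at 24 counts, were RF00340, RF00415, SNORA54 and SNORA74B, and the 4 just outside it, at 23 counts, were RF00072, SNORA20, SNORD105B and SNORD113-2.

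The 4 groups held 3 libraries each, from cells labelled as wild type. SiNAT10_TGFB cells were transfected with siRNA against NAT10 by lipofection and were given 5 ng/ml TGF-β1 from 48 h onwards, for 24 h. SiNAT10 cells received the siRNA alone, and their time from transfection to harvest is not stated. TGFB cells received 5 ng/ml TGF-β1 for 24 h without siRNA, and con cells received neither. No group is labelled as receiving a control siRNA, so transfection and the knockdown cannot be told apart. The libraries are labelled as biological replicates without separate cultures being named, and the p-values therefore measure the spread between these samples.

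Box H/ACA snoRNAs, named SNORA, guide pseudouridylation of ribosomal RNA together with dyskerin. Box C/D snoRNAs, named SNORD, guide 2'-O-methylation of ribose together with fibrillarin, and scaRNAs do the same for spliceosomal RNAs in Cajal bodies. A few snoRNAs, among them U3, U8, U14, U17 and U22, serve mainly in cleavage of the ribosomal precursor, and SNORD13 guides cytidine acetylation of 18S ribosomal RNA. NAT10, the target of the siRNA, is the nucleolar acetyltransferase that carries out this acetylation. In vertebrates most snoRNAs lie in introns of a host gene, are trimmed out of the spliced intron and are shielded by their bound proteins.

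NAT10 had 19.1, 15.7 and 20.6 CPM (counts per 1000000 counts of the library, with TMM scaling) in SiNAT10_TGFB libraries and 19.4, 18.5 and 17.8 CPM in SiNAT10 libraries, against 67.6, 65.3 and 67.6 CPM in TGFB libraries and 63.6, 69.2 and 70.2 CPM in con libraries. Total counts ran from 25877008 to 28311434 in libraries from transfected cells and from 29797990 to 35132582 in the others. The stellate cell genes COL1A1, FN1 and VIM were abundant, whereas LRAT was at 0 counts and DES at 14 counts in all. Marker sums of other cell types reached at most 5.05 CPM in any library, and the highest of them, over 4 leukocyte genes, were 3.46 to 5.05 CPM in SiNAT10_TGFB, 4.14 to 4.91 CPM in SiNAT10, 1.08 to 2.30 CPM in TGFB and 3.01 to 3.85 CPM in con libraries. Of 6 tested stellate cell genes 5 were called lower in each siRNA comparison, and the summed list of 8 had 6959 to 8146 CPM in SiNAT10_TGFB, 3222 to 3410 CPM in SiNAT10, 24129 to 25476 CPM in TGFB and 7378 to 7882 CPM in con libraries. Their part in the results below was not tested.

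The members were rare in these libraries. All 147 together had 17144 counts over 12 libraries, between 0.00327% and 0.00673% of a library's counts, and the median member had 62 counts in all. SNORD17 alone held 8.71% of the members' counts, and the 10 most abundant members held 35.1%. A count of 3 corresponded to 0.0881 to 0.115 CPM, depending on the library. Such values rest on few reads, and 70 members had fewer than 60 counts over all libraries.

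The members on which the results turn are shown first with their sequences, taken from the transcripts of GENCODE release 29 on GRCh38 (hg38), the release in which all 147 members had the start and end that the table gives. Capitals mark TGATGA, the C box, in the first 20 bases and CTGA, the D box, in the last 20 bases of C/D snoRNAs, or ACA in the last 8 bases of H/ACA snoRNAs, searched on the transcribed strand. SNORD14E is a copy of U14 in an intron of HSPA8, SNORD20 lies in an intron of NCL, and SNORD12C and SNORD12B lie in introns of ZFAS1. SNORD17 was the most abundant member and is shown for its length.
SNORD14E: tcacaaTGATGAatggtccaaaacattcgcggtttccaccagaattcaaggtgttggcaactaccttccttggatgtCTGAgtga
SNORD20: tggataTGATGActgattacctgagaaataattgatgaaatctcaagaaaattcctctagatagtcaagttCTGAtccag
SNORD12C: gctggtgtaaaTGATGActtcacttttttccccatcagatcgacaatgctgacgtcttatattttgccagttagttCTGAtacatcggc
SNORD12B: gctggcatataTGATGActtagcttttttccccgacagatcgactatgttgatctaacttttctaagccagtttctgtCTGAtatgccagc
SNORD17: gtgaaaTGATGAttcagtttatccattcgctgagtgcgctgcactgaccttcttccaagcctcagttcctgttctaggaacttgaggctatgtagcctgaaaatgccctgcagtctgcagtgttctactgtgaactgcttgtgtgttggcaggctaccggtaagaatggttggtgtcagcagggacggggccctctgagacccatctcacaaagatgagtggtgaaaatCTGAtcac
SNORA75: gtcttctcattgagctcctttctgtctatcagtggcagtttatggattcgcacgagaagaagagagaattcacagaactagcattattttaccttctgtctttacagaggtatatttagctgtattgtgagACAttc
SNORA71C: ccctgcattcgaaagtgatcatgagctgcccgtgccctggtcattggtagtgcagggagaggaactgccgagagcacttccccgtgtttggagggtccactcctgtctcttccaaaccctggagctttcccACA
SNORA71A: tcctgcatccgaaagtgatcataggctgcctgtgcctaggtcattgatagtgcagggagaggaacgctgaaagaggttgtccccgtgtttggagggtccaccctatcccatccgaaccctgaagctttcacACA
SNORA71D: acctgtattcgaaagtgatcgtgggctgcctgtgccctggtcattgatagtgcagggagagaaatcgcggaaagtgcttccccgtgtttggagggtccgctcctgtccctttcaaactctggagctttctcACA

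Both boxes were found in 71.9% of the SNORD members, beside 67.3% of all annotated SNORD genes. ACA was found in 97.8% of the SNORA members, beside 89.8% of all annotated SNORA genes. Of the RF-named members, 47.2% had the ACA and 5.56% had both boxes. SNORD12B and SNORD12C were 73.6% identical in sequence, and SNORA71C and SNORA71D were 86.6% identical. SNORA75 has a copy of 91.2% identity, SNORA75B, so reads may have been split between the pair, and 37 members in all have a snoRNA or scaRNA gene of at least 90% identity elsewhere in the annotation.

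Of the 147 members, 128 lay wholly within the span of a longer gene on the same strand, which is called the host here, and 125 of these lay wholly in its introns. The hosts were protein-coding for 86 members and noncoding for 42. Counts of an intronic snoRNA gene may come from the processed snoRNA or from unspliced host RNA, and a table of gene counts cannot tell these apart. Of the snoRNA and scaRNA genes outside the 147, 607 had no count in any library and 238 had 1 to 23 counts. Exons of other annotated genes covered 165 of the 607 (27.2%) over their whole length, but none of the 238 and none of the 147. For named genes with no count the share was larger, 47 of 72 SNORA, 84 of 143 SNORD and 5 of 7 SCARNA genes. SNORD13, SNORD118 (U8), SNORD22 (U22), SNORA73A (U17), SNORD14B, SNORD14C and SNORD14D were among the genes wholly covered by exons and with no count, so the acetylation guide that works with NAT10 gave no value here. Whether the counting of overlapping genes set these zeros was not tested.

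Summed levels of box H/ACA and of box C/D members were higher after NAT10 siRNA. Summed over 46 SNORA genes the level was 25.0 ± 1.33 CPM in SiNAT10_TGFB, 23.5 ± 1.99 CPM in SiNAT10, 13.7 ± 0.225 CPM in TGFB and 9.90 ± 0.958 CPM in con cells (SD, n = 3 each). Summed over 57 SNORD genes it was 31.0 ± 1.83 CPM in SiNAT10_TGFB, 30.0 ± 2.41 CPM in SiNAT10, 19.0 ± 1.66 CPM in TGFB and 19.4 ± 0.495 CPM in con cells. For both classes every library from transfected cells lay above every library from cells without siRNA. The ratio of mean sums, SiNAT10 over con, was 2.37 for SNORA and 1.54 for SNORD genes, and SiNAT10_TGFB over TGFB it was 1.83 and 1.63. The 8 SCARNA genes summed to 1.35 ± 0.0214 CPM in SiNAT10_TGFB, 1.30 ± 0.223 CPM in SiNAT10, 0.826 ± 0.188 CPM in TGFB and 0.964 ± 0.447 CPM in con cells. Their ratio was 1.35 for SiNAT10 over con, where the libraries overlapped, and 1.64 for SiNAT10_TGFB over TGFB, where they did not. The 36 RF-named genes summed to 4.92 ± 0.709 CPM in SiNAT10_TGFB, 5.34 ± 0.255 CPM in SiNAT10, 4.71 ± 0.188 CPM in TGFB and 3.67 ± 0.413 CPM in con cells. Here the ratio was 1.45 for SiNAT10 over con without overlap, and 1.04 for SiNAT10_TGFB over TGFB with overlap.

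**Figure D1:**
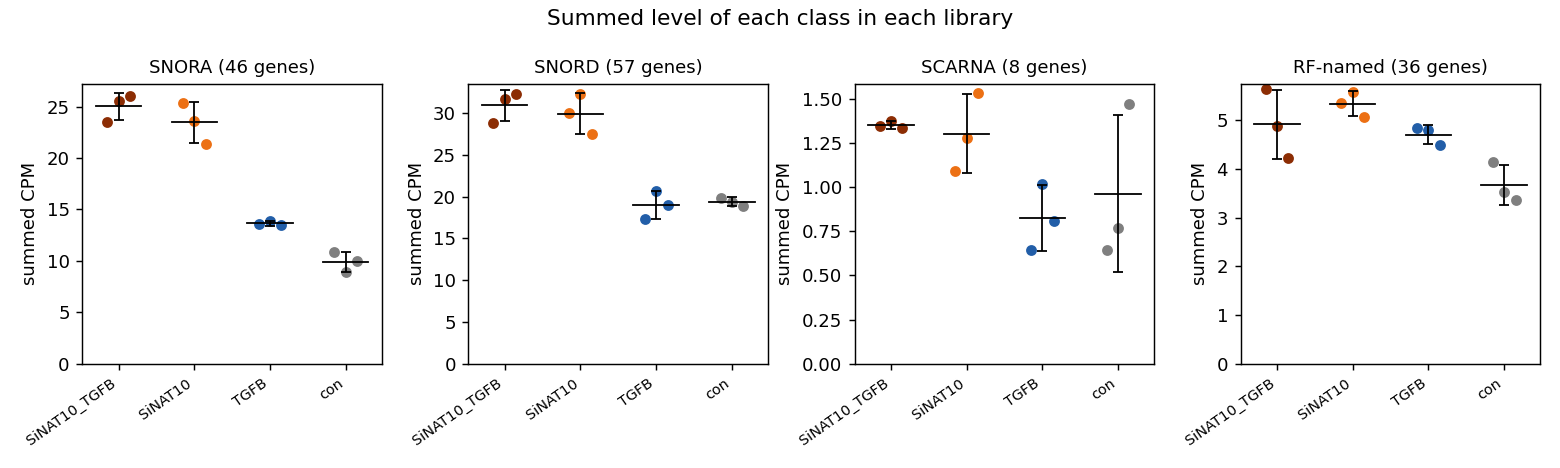
Summed CPM of the SNORA, SNORD, SCARNA and RF-named members in each library; each point is a library, the line is the group mean and the bar is the SD of 3 libraries. SNORA and SNORD sums were higher in all 6 libraries from transfected cells than in the other 6. SCARNA sums overlapped between SiNAT10 and con but not between SiNAT10_TGFB and TGFB libraries, and the reverse held for RF-named sums.

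A few genes carried much of these sums. The 4 SNORA71 genes and SNORA75 together had 11.0 ± 0.585 CPM in SiNAT10_TGFB, 10.8 ± 1.33 CPM in SiNAT10, 4.94 ± 0.442 CPM in TGFB and 2.54 ± 0.622 CPM in con cells. The other 41 SNORA genes summed to 14.0 ± 0.791 CPM in SiNAT10_TGFB, 12.7 ± 0.947 CPM in SiNAT10, 8.71 ± 0.232 CPM in TGFB and 7.36 ± 1.56 CPM in con cells. Their ratio was 1.73 for SiNAT10 over con and 1.60 for SiNAT10_TGFB over TGFB. SNORD14E and SNORD20 together had 5.89 ± 0.725 CPM in SiNAT10_TGFB, 5.44 ± 0.528 CPM in SiNAT10, 0.606 ± 0.0768 CPM in TGFB and 0.746 ± 0.351 CPM in con cells. The other 55 SNORD genes summed to 25.1 ± 1.20 CPM in SiNAT10_TGFB, 24.5 ± 1.89 CPM in SiNAT10, 18.4 ± 1.61 CPM in TGFB and 18.7 ± 0.667 CPM in con cells, ratios of 1.31 for SiNAT10 over con and 1.36 for SiNAT10_TGFB over TGFB. The leading genes were picked with their values known, and the sums are given as a description. Other classes of short or intronic RNA gave mixed sums. Genes annotated as miRNA summed to 45.2 ± 7.68 CPM in SiNAT10_TGFB, 46.0 ± 5.03 CPM in SiNAT10, 37.3 ± 2.10 CPM in TGFB and 32.2 ± 1.37 CPM in con cells. Their ratio, 1.43 for SiNAT10 over con with no overlap of libraries and 1.21 for SiNAT10_TGFB over TGFB with overlap, was thus in the same direction as that of the members. Of 105 miRNA genes tested, 9 were called higher and 6 lower in SiNAT10 against con, and 9 higher and 14 lower in SiNAT10_TGFB against TGFB. Genes annotated as snRNA summed to 11.7 CPM in SiNAT10_TGFB, 11.9 CPM in SiNAT10, 11.1 CPM in TGFB and 11.3 CPM in con cells. Of 75 snRNA genes tested, 3 were called higher and 1 lower in SiNAT10 against con, and 3 and 2 in SiNAT10_TGFB against TGFB. Genes annotated as sense-intronic RNA, whose reads come from introns too, summed to 292 CPM in SiNAT10_TGFB, 290 CPM in SiNAT10, 303 CPM in TGFB and 262 CPM in con cells. Of 415 such genes tested, 13.0% were called higher and 5.78% lower in SiNAT10 against con, with a median log2 fold change of 0.41. In SiNAT10_TGFB against TGFB the shares were 7.47% and 7.71%, and the median was 0.03. Of 159 genes annotated as miscellaneous RNA, 11.9% were called higher and 2.52% lower in SiNAT10 against con (median 0.56). Against TGFB their shares were 6.92% and 3.77%, with a median of 0.12. The only tested RNA of another list of small structured RNAs, RN7SL2 of the signal recognition particle, varied widely among replicates, with 274 ± 42.3 CPM in SiNAT10_TGFB, 527 ± 287 CPM in SiNAT10, 402 ± 280 CPM in TGFB and 166 ± 55.4 CPM in con cells. It was called higher in SiNAT10 against con (log2 fold change 1.67) and in TGFB against con (1.28), and was not called in SiNAT10_TGFB against TGFB (−0.55). Its part in the members' values was not tested.

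In SiNAT10 against con, 23 of 147 members were called higher and none lower by edgeR's quasi-likelihood test at an adjusted p under 0.05, with Benjamini-Hochberg adjustment over 23445 genes. Over all genes tested, 20.8% were called higher and 21.5% lower. The share of members called higher, 15.6%, was below that of all genes. At an unadjusted p under 0.05, 38 members were higher and 2 lower. The share of all genes at that threshold was not taken, so these 2 numbers have no background beside them. Neither DESeq2 nor voom called a member lower. Few genes with low counts are called, so the members are also given beside genes in the same range of counts. At a mean of 10 to 50 counts per library 12 of 38 members (31.6%) were called higher and none lower, beside 592 higher (14.5%) and 489 lower of 4081 genes in that range. Below a mean of 10 counts, 10 of 107 members (9.35%) were called higher and none lower, beside 7.56% higher and 2.47% lower of all genes. The median log2 fold change was 0.85 over the members and 0.04 over all genes tested. Below a mean of 10 counts it was 0.75 over the members and 0.37 over all genes, and at 10 to 50 counts 0.85 and 0.07.

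In SiNAT10_TGFB against TGFB, 22 members were called higher and none lower, beside 21.1% of all genes called higher and 21.4% called lower. At an unadjusted p under 0.05, 28 members were higher and 1 lower, again without the share of all genes at that threshold. DESeq2 called none lower while voom called 1, SNORD113-3. At a mean of 10 to 50 counts, 11 of 38 members (28.9%) were called higher and none lower, beside 12.9% higher and 12.4% lower of all genes in that range. Below a mean of 10 counts, 10 of 107 members (9.35%) were called higher and none lower, beside 6.39% higher and 3.09% lower of all genes. The median log2 fold change was 0.56 over the members and 0.02 over all genes. Below a mean of 10 counts it was 0.32 over the members and 0.19 over all genes, and at 10 to 50 counts 0.70 and −0.03. By class, 10 SNORA, 9 SNORD, 1 SCARNA and 3 RF-named members were called higher in SiNAT10 against con, and 9 SNORA, 11 SNORD, no SCARNA and 2 RF-named members in SiNAT10_TGFB against TGFB. The counts of all members were read without a test of the list.

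Without any model, 42 members (28.6%) had all 3 SiNAT10 libraries above all 3 con libraries, and 4 (2.72%) had all below. Over all genes tested the shares were 25.2% and 24.7%. In SiNAT10_TGFB against TGFB, 41 members (27.9%) lay wholly above and 5 (3.40%) wholly below, beside 26.3% and 25.7% of all genes. Below a mean of 10 counts the members' shares were 23.4% above and 1.87% below in SiNAT10 against con, beside 16.6% and 6.66% of all genes, and 21.5% above and 4.67% below in SiNAT10_TGFB against TGFB, beside 14.2% and 8.05%. Of the 32 members called higher in either comparison, 13 were called in both, 56.5% of the calls against con and 59.1% of the calls against TGFB. Over all genes tested, 3647 were called higher in both, 74.9% of the calls against con and 73.8% of the calls against TGFB. Among genes with a mean below 10 counts these shares were 33.9% and 40.1%, beside 5 of 10 member calls in each comparison in that range, and at 10 to 50 counts 53.7% and 60.2%, beside 58.3% and 63.6%. The 13 members were SNORA28, SNORA31, SNORA71A, SNORA71C, SNORA75, SNORD9, SNORD11B, SNORD14E, SNORD20, SNORD46, SNORD72, SNORD73B and RF00150. Of SNORA31, 56.9% lies in exons of its host TPT1, so its counts may include spliced host RNA. Over 12 fits that each left out a library, SNORD46 kept its call against con in 8 and SNORD11B in 7. Both kept that against TGFB in 11. SNORD73B kept its call in all 12 against con and in 8 against TGFB. The pair of comparisons shares no library.

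**Figure D2:**
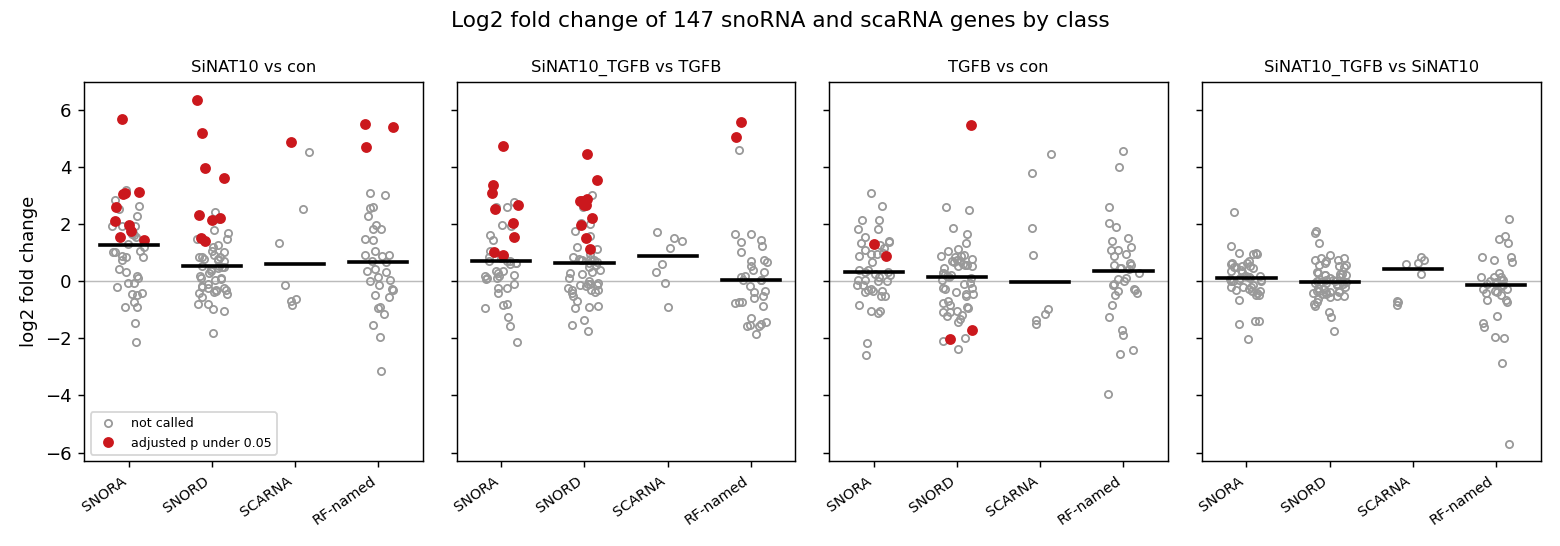
Log2 fold change of each of the 147 members by class in 4 comparisons, with filled points at an adjusted p under 0.05 and a line at the class median. Called members lie above 0 in both comparisons of transfected with untransfected cells; fitted values of genes with no count in a group depend on the prior count and are no measured size.

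SNORD14E, a U14 gene (hg38 chromosome 11, 123058077 to 123058161), showed the smallest p-values of all members in both comparisons. It had 79, 87 and 69 counts in SiNAT10_TGFB libraries and 75, 87 and 84 counts in SiNAT10 libraries, against 6, 4 and 2 counts in TGFB libraries and 8, 5 and 9 counts in con libraries. The transfected and untransfected libraries were far apart and TGFB and con libraries overlapped. The level was 2.85 ± 0.431 CPM in SiNAT10_TGFB and 2.88 ± 0.287 CPM in SiNAT10, against 0.125 ± 0.0587 CPM in TGFB and 0.228 ± 0.0576 CPM in con cells. The log2 fold change was 3.63 in SiNAT10 against con (SE 0.34, adjusted p = 9.81e-10) and 4.44 in SiNAT10_TGFB against TGFB (SE 0.37, adjusted p = 1.13e-10). HSPA8, the host, which encodes a constitutive heat shock protein, rose by 0.26 and 0.12 on the log2 scale. SNORD14A, the U14 gene in RPS13, was called higher against TGFB (log2 fold change 1.50, SE 0.46, adjusted p = 0.00877) but not against con (0.91, SE 0.42, adjusted p = 0.0855). The call against TGFB was lost without TGFB replicate 1 (1.19) or without SiNAT10_TGFB replicate 2 (1.14), and without con replicate 2 the value against con was called (1.36).

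NCL, which encodes nucleolin, hosts a pair of members of different class. SNORA75 (chromosome 2, 231455800 to 231455936), also known as U23, guides pseudouridylation of 28S ribosomal RNA. It had 97, 63 and 99 counts in SiNAT10_TGFB and 77, 80 and 87 counts in SiNAT10 libraries, against 14, 12 and 8 counts in TGFB and 3, 14 and 14 counts in con libraries. No library from transfected cells came near the others. The log2 fold change was 3.11 in SiNAT10 against con (SE 0.37, adjusted p = 6.77e-08) and 3.10 in SiNAT10_TGFB against TGFB (SE 0.36, adjusted p = 5.12e-08).

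SNORD20 (chromosome 2, 231456444 to 231456523), the second NCL member, guides methylation of 18S ribosomal RNA. It had 71, 66 and 115 counts in SiNAT10_TGFB and 82, 82 and 55 counts in SiNAT10 libraries, against 11, 16 and 18 counts in TGFB and 8, 29 and 11 counts in con libraries. Con replicate 2 stood highest among the untransfected libraries, and the groups did not overlap. The log2 fold change was 2.32 against con (SE 0.38, adjusted p = 1.27e-05), or 3.13 without con replicate 2, and 2.66 against TGFB (SE 0.38, adjusted p = 1.72e-06). NCL itself had 816 ± 33.3 CPM in SiNAT10_TGFB and 778 ± 30.1 CPM in SiNAT10, against 850 ± 43.1 CPM in TGFB and 778 ± 36.1 CPM in con cells. Its log2 fold changes were 0.00 against con and −0.06 against TGFB, with adjusted p-values of 0.994 and 0.433 by the same fit.

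SNHG17, a long noncoding RNA gene on chromosome 20, hosts SNORA71A, SNORA71B, SNORA71C and SNORA71D, which guide pseudouridylation of 18S ribosomal RNA. All 4 were called higher in SiNAT10 against con, and SNORA71A and SNORA71C in SiNAT10_TGFB against TGFB. SNORA71C (38429670 to 38429803) had 67, 100 and 114 counts in SiNAT10_TGFB and 138, 112 and 88 counts in SiNAT10 libraries, against 57, 65 and 38 counts in TGFB and 22, 38 and 27 counts in con libraries. Each group with siRNA lay above its counterpart without siRNA, and TGFB lay narrowly above con in CPM. Its log2 fold change was 2.10 in SiNAT10 against con (SE 0.28, adjusted p = 6.93e-07) and 1.01 in SiNAT10_TGFB against TGFB (SE 0.27, adjusted p = 0.00288).

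The other SNORA71 genes were lower in level, and SNORA71B is annotated as 272 bases, longer than the 134 bases of the others. SNORA71B (38425083 to 38425354) had 2.13 ± 0.107 CPM in SiNAT10_TGFB, 1.93 ± 0.496 CPM in SiNAT10, 1.66 ± 0.00764 CPM in TGFB and 0.667 ± 0.161 CPM in con cells. Its log2 fold change in SiNAT10 against con was 1.53 (SE 0.29, adjusted p = 8.57e-05). SNORA71A rose by 1.77 in SiNAT10 against con (SE 0.38, adjusted p = 0.000407) and by 0.91 in SiNAT10_TGFB against TGFB (SE 0.36, adjusted p = 0.0394), where the libraries overlapped. That second call was lost without TGFB replicate 1 (0.69), TGFB replicate 2 (0.88), SiNAT10_TGFB replicate 1 (0.70) or SiNAT10_TGFB replicate 2 (0.80). SNORA71D rose by 1.46 in SiNAT10 against con (SE 0.59, adjusted p = 0.0472), a call kept in 3 of 12 fits that each left out a library. SNHG17 had 67.6 ± 8.18 CPM in SiNAT10_TGFB and 61.4 ± 6.53 CPM in SiNAT10, against 41.1 ± 2.12 CPM in TGFB and 31.4 ± 1.65 CPM in con cells. It rose by 0.97 and 0.72 on the log2 scale in these comparisons.

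**Figure D3:**
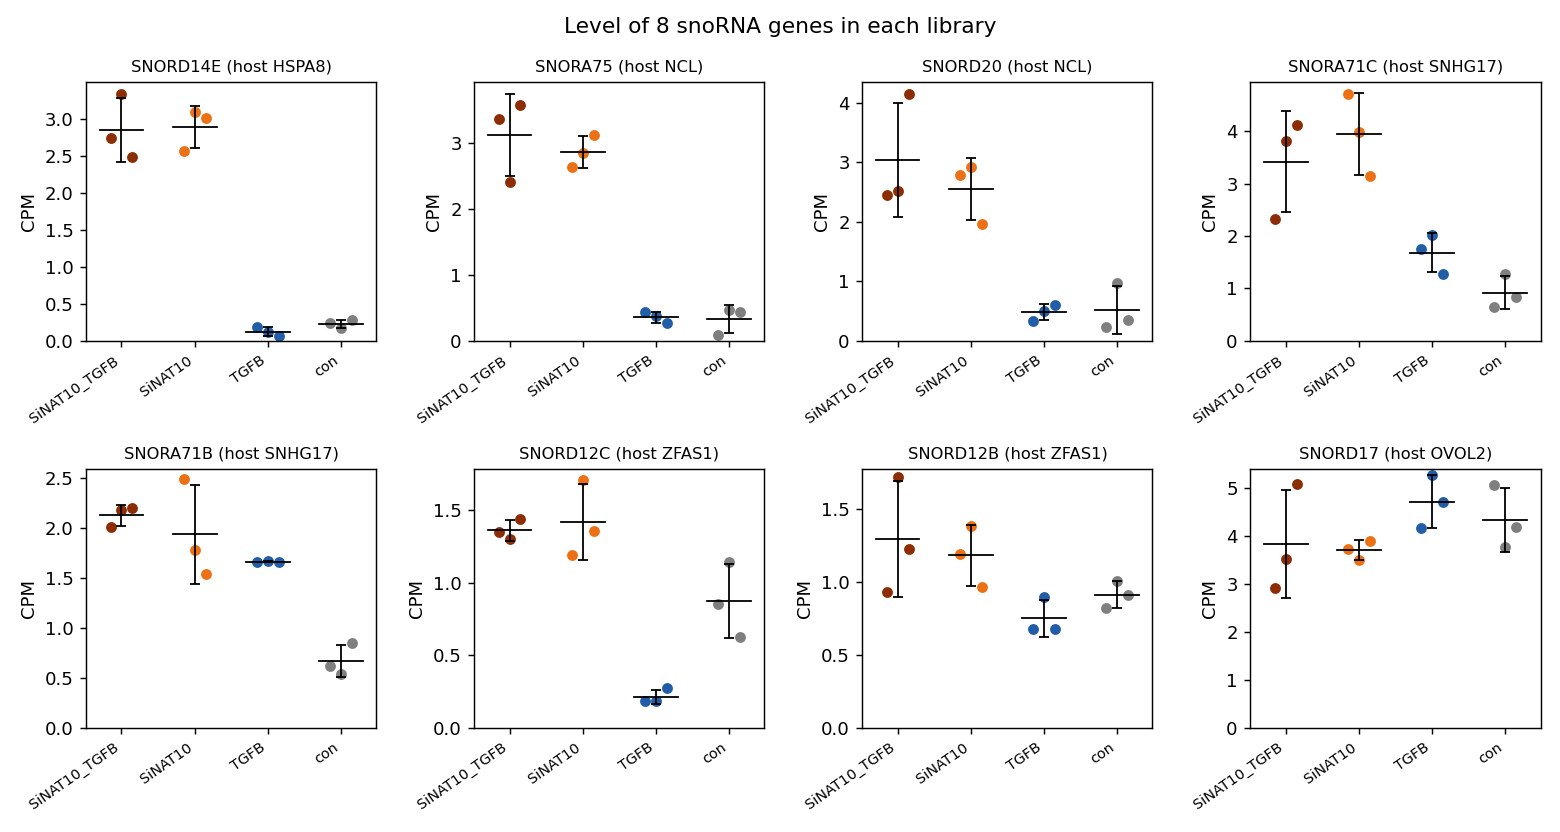
CPM of 8 members in each library, with the group mean (line) and the SD of 3 libraries (bar). Panel titles give the host gene, for SNORD17 the longer of OVOL2 and SNX5, which both span it. SNORD14E, SNORA75 and SNORD20 separate transfected from untransfected cells, SNORD12C is lowest in TGFB cells, and SNORD17 overlaps between the groups of each comparison made.

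Several other C/D members rose after siRNA. SNORD72, in RPL37, had 20, 23 and 14 counts in SiNAT10_TGFB and 34, 23 and 23 counts in SiNAT10 libraries, against 1, 7 and 1 counts in TGFB and 8, 6 and 5 counts in con libraries. Its log2 fold change was 2.21 against con (SE 0.56, adjusted p = 0.00211) and 2.81 against TGFB (SE 0.63, adjusted p = 0.000584), or 4.25 without TGFB replicate 2. SNORD94, in PTCD3, had 28, 23 and 41 counts in SiNAT10 libraries against 16, 12 and 11 counts in con libraries. It rose by 1.40 on the log2 scale (SE 0.42, adjusted p = 0.00766), a call lost without SiNAT10 replicate 3 (1.12).

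Among H/ACA members, SNORA28, in EIF5, had 28, 33 and 25 counts in SiNAT10_TGFB and 29, 28 and 15 counts in SiNAT10 libraries. It had 8, 0 and 7 counts in TGFB and 0, 2 and 11 counts in con libraries. Its log2 fold change was 2.59 against con (SE 0.74, adjusted p = 0.00537) and 2.67 against TGFB (SE 0.72, adjusted p = 0.00318). Con replicate 3 held most of the con counts, and without it the value against con was 4.57, while without con replicate 1 it was 1.99. SNORA9B, in DDX55, was called higher against TGFB only (1.54, SE 0.58, adjusted p = 0.0325). It has a copy of 91.7% identity, and its call was lost without TGFB replicate 2 (1.24) or 3 (1.55) or without SiNAT10_TGFB replicate 1 (1.54) or 3 (1.47).

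Some called members had no count at all in one group, so no size of change was measured. A fold over a floor of 3 counts for that whole group is given instead. It takes the level of the other group as measured, without its error, and is no lower bound. SNORD59A, in ATP5F1B, had 5, 13 and 9 counts in SiNAT10_TGFB, 8, 11 and 10 counts in SiNAT10, 3, 7 and 7 counts in TGFB and 0 counts in all con libraries. Its level in SiNAT10 cells was 10.8-fold over the con floor (adjusted p = 0.000318). SNORA74C-1, with 4, 6 and 8 counts in SiNAT10 libraries and 0 in con libraries, was 6.72-fold over the con floor (adjusted p = 0.00441). SCARNA1, a scaRNA in PPP1R8, had 1, 1 and 8 counts in SiNAT10 libraries and 0 in con libraries. That is 3.74-fold over the con floor (adjusted p = 0.0326), a call lost without SiNAT10 replicate 3 or any single con library. RF00150 had 0 counts in TGFB and con libraries, was at least 3.36-fold higher in SiNAT10 than in con and at least 6.08-fold higher in SiNAT10_TGFB than in TGFB cells. Its call against con was lost without SiNAT10 replicate 2 or any single con library. SNORA74B, called higher in SiNAT10_TGFB against TGFB, had 24 counts in all. Of these 9 were in SiNAT10_TGFB, 13 in SiNAT10, 0 in TGFB and 2 in con libraries, so it too passed the threshold through transfected cells. Its call was kept in 5 of 12 fits that each left out a library. SNORA74B, SNORA74C-1, SCARNA1 and RF00150 were singled out after their values were seen.

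The members with a role in cleavage of the ribosomal precursor or in acetylation formed a list of 15 names, 5 of which were among the 147. Beside the U14 genes these were SNORD3A and SNORD3B-1, both genes of U3, and SNORA73B, a U17 gene. SNORD3A had 5, 12 and 20 counts in SiNAT10_TGFB, 7, 13 and 3 counts in SiNAT10, 2, 2 and 6 counts in TGFB and 2, 9 and 13 counts in con libraries. Its libraries overlapped in each comparison, and the log2 value against TGFB, 2.03 (SE 0.83, adjusted p = 0.051), was just short of the threshold. It passed under 10 of 21 alternatives, DESeq2 among them, and the value was 2.78 without TGFB replicate 3. SNORD3B-1 was called in no comparison. SNORA73B had 39, 35 and 33 counts in SiNAT10 libraries against 26, 13 and 20 counts in con libraries, or 1.03 on the log2 scale (SE 0.42, adjusted p = 0.0501), which passed the threshold under 13 of 22 alternatives but in none of the 6 fits that left out a SiNAT10 or con library. U3 genes and SNORA73B have copies above 90% identity, so their counts may be shared with other loci. Over the list, 1 of 5 members was called higher in SiNAT10 against con and 2 of 5 in SiNAT10_TGFB against TGFB, and none lower. Over all genes tested, 20.8% and 21.1% were called higher in these comparisons and 21.5% and 21.4% lower. Counts over 5 genes are no result about the list.

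Abundance alone did not mark the genes that rose. Counted per length, SNORD20, SNORD17, SNORD14E, SNORD62B and SNORD12B led the SNORD members at 588, 525, 505, 337 and 334 counts per kilobase as a mean over all libraries. SNORD17 had 84, 92 and 141 counts in SiNAT10_TGFB and 109, 98 and 109 counts in SiNAT10, against 135, 170 and 139 counts in TGFB and 172, 112 and 133 counts in con libraries. Its level was 3.83 ± 1.12 CPM in SiNAT10_TGFB, 3.70 ± 0.205 CPM in SiNAT10, 4.71 ± 0.550 CPM in TGFB and 4.33 ± 0.661 CPM in con cells. It was called in no comparison. Without SiNAT10_TGFB replicate 3 it was called lower against TGFB, at −0.55 on the log2 scale. SNORD62B, identical in sequence to SNORD62A, had a log2 fold change of −0.11 in both siRNA comparisons (SE 0.35 each, adjusted p-values 0.836 and 0.84). SNORA33, the fourth SNORA member by count per length, had log2 fold changes of 0.31 and 0.71 (SE 0.39 and 0.40) and was not called.

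The scaRNAs were near the limit of these libraries. SCARNA6, the first of them by count per length at 34.0 counts per kilobase, had 16, 7 and 11 counts in SiNAT10_TGFB, 3, 3 and 13 counts in SiNAT10, 8, 8 and 1 counts in TGFB and 4, 11 and 23 counts in con libraries. In CPM every SiNAT10_TGFB library lay narrowly above every TGFB library, and the groups of the other comparisons overlapped. SCARNA5, SCARNA8, SCARNA20 and SCARNA21 were called in no comparison either, with log2 fold changes between −1.48 and 1.51 and SE of up to 1.31 in the siRNA comparisons and in TGFB against con. Without TGFB replicate 2, SCARNA5 was called higher in SiNAT10_TGFB against TGFB, at 3.45.

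TGF-β1 without siRNA was compared with con. This comparison with con shares the con libraries with that of SiNAT10. In TGFB against con, 3 members were called higher and 2 lower, beside 8.86% of all genes called higher and 9.88% called lower. At matched counts the shares were nearer to the background. Below a mean of 10 counts 1 of 107 members (0.935%) was called higher and none lower, beside 1.38% higher and 0.680% lower of all genes, and at 10 to 50 counts 2.63% of members were higher and 5.26% lower, beside 5.76% and 3.55%. The summed SNORA level was 13.4 to 13.9 CPM in TGFB libraries and 8.92 to 10.8 CPM in con libraries, a ratio of mean sums of 1.38 with no overlap. Without the 4 SNORA71 genes and SNORA75, the other 41 had a ratio of 1.18. Their libraries overlapped, with 8.45 to 8.87 CPM in TGFB and 5.87 to 8.99 CPM in con. SNORA71B had 54, 54 and 49 counts in TGFB libraries against 21, 16 and 27 counts in con libraries. It rose by 1.31 on the log2 scale (SE 0.29, adjusted p = 0.00143), while its host SNHG17 rose by 0.39 (adjusted p = 0.0024). SNORA71C rose by 0.88 (SE 0.30, adjusted p = 0.0376), a call lost without con replicate 1 (0.68), con replicate 3 (0.84), TGFB replicate 1 (0.85) or TGFB replicate 2 (0.73), with scaling to library size alone and with voom. SNORD59A, with 0 counts in con libraries, was 5.75-fold over the floor of 3 con counts in TGFB cells (adjusted p = 0.00541).

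SNORD12C (chromosome 20, 49278940 to 49279028) was the only member called in both TGF-β1 and siRNA comparisons in opposite directions. It had 39, 34 and 40 counts in SiNAT10_TGFB and 35, 48 and 38 counts in SiNAT10, against 6, 6 and 8 counts in TGFB and 29, 34 and 20 counts in con libraries. The TGFB libraries lay below all others. The level was 1.36 ± 0.0724 CPM in SiNAT10_TGFB, 1.42 ± 0.262 CPM in SiNAT10, 0.214 ± 0.0491 CPM in TGFB and 0.873 ± 0.257 CPM in con cells. It fell in TGFB against con (log2 fold change −2.01, SE 0.41, adjusted p = 0.000531) and rose in SiNAT10_TGFB against TGFB (2.66, SE 0.40, adjusted p = 3.29e-06). Both comparisons use the same TGFB libraries. In SiNAT10 against con its log2 fold change was 0.70 (SE 0.34, adjusted p = 0.0986), with all 3 SiNAT10 libraries above con.

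The response of SNORD12C to TGF-β1 with siRNA differed from that without siRNA by 1.96 on the log2 scale (interaction term, SE 0.53, adjusted p = 0.0362). It was the only member called for the interaction, in which 1.55% of all genes were called higher and 1.44% lower, 2.99% together. Among all genes with a mean of 10 to 50 counts, the range of SNORD12C, 0.368% were called higher and 0.735% lower. Below a mean of 10 counts the shares were 0.0316% and 0.0633%. The call was kept in 3 of 12 fits that each left out a library, with values from 1.72 to 2.00 in the 9 that lost it. SNORD12B, its neighbour in ZFAS1, had 27, 45 and 34 counts in SiNAT10_TGFB and 35, 39 and 27 counts in SiNAT10, against 22, 29 and 20 counts in TGFB and 28, 30 and 29 counts in con libraries. It was called in no comparison, with 0.78 (SE 0.34, adjusted p = 0.068) in SiNAT10_TGFB against TGFB. ZFAS1 had a log2 fold change of −0.12 in TGFB against con and of 0.49 in SiNAT10_TGFB against TGFB.

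SNORD100, in RPS12, was the other member called lower. It had 4, 9 and 7 counts in TGFB libraries against 29, 23 and 15 counts in con libraries, and the groups did not overlap. The log2 fold change was −1.70 (SE 0.55, adjusted p = 0.0309), lost without con replicate 1 (−1.52), con replicate 2 (−1.62), TGFB replicate 1 (−1.42) or TGFB replicate 3 (−1.78). RPS12, which encodes a ribosomal protein, had a log2 fold change of 0.09. SNORA33, also in RPS12, had −0.35 (SE 0.40) and was not called.

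In SiNAT10_TGFB against SiNAT10, no member was called by edgeR, DESeq2 or voom, beside 4.56% of all genes called higher and 3.81% called lower, 8.36% together. Among all genes below a mean of 10 counts, only 0.237% were called higher and 0.253% lower, and at 10 to 50 counts 1.84% and 1.18%. At an unadjusted p under 0.05, 1 member was higher and 1 lower, RF00409 and RF00415, without the share of all genes at that threshold. The median log2 fold change of the members was 0.02. Whether fewer members respond to TGF-β1 with siRNA than without it was not tested beyond the interaction term of each gene.

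Members and hosts moved by different amounts. In SiNAT10 against con, 21 of the members called higher had a tested host, and the host was called higher for 14, lower for 1 and not called for 6. These were 17 different hosts, 11 of them higher, 1 lower and 5 not called, since SNHG17 and NCL host several of these members. In SiNAT10_TGFB against TGFB there were 20 such members, with the host higher for 11, lower for 2 and not called for 7, or 10, 2 and 5 of 17 different hosts. Over all 87 tested hosts of members, 42.5% were called higher and 19.5% lower in SiNAT10 against con, and 37.9% higher and 29.9% lower in SiNAT10_TGFB against TGFB. The member's fitted log2 fold change exceeded that of its host in all 21 and all 20 cases, a direction that choosing called members favours. CHD8, the host of SNORD9, was lower in both comparisons, by −0.44 and −0.32. SNORD9 itself had 10, 11 and 6 counts in SiNAT10_TGFB, 6, 13 and 14 counts in SiNAT10, 1, 1 and 2 counts in TGFB and 1, 0 and 1 counts in con libraries.

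Over the 37 members with a mean of at least 10 counts and a tested host, regardless of calls, the median log2 fold change was 0.85 for members and 0.30 for hosts in SiNAT10 against con, and 0.72 and 0.18 in SiNAT10_TGFB against TGFB. Across these members the changes of member and host had a Pearson's r of 0.12 and a Spearman's rho of 0.04 in SiNAT10 against con, and 0.16 and 0.25 in SiNAT10_TGFB against TGFB. Members of one host share its value and all share the same libraries, and these weak correlations are no finding. SNORD17 lies within the spans of both OVOL2 and SNX5, and the longer gene, OVOL2, was taken as its host. OVOL2 was not among the genes tested, so SNORD17 is not one of the 37 members compared with a host here. SNX5, which was tested, was not used in its place. The choice leaves SNORD17, the most abundant member and called in no comparison, out of the host comparison.

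**Figure D4:**
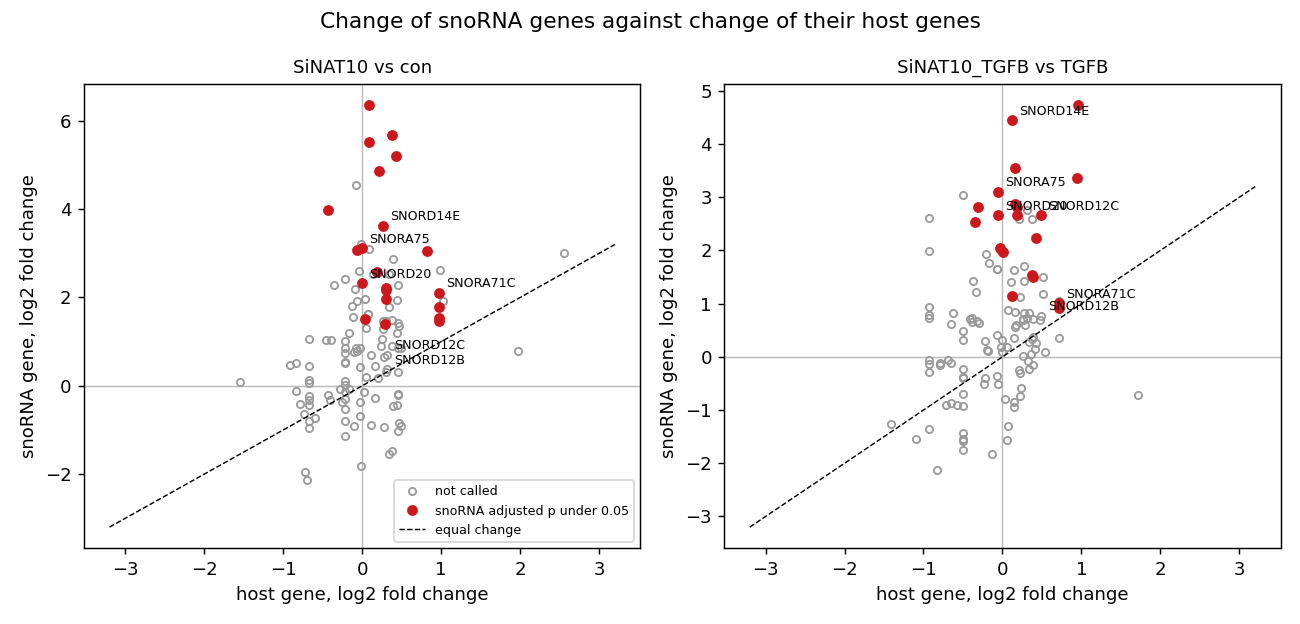
Log2 fold change of each member with a tested host against that of the host in SiNAT10 against con and SiNAT10_TGFB against TGFB. The dashed line marks equal change and filled points are members at an adjusted p under 0.05. Called members lie above the line, with SNORA75 and SNORD20 near 0 on the host axis.

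Members in the large imprinted clusters were not called in these comparisons in the fit described. The 9 SNORD116 members in SNHG14 had median log2 fold changes of −0.22 in SiNAT10 against con and 0.74 in SiNAT10_TGFB against TGFB, with none called. SNHG14 was lower by −0.68 and −0.93 in these comparisons. The 9 members of the SNORD113 and SNORD114 families had medians of 0.53 and −0.40, with none called. MEG8, their host, had log2 fold changes of −0.22 (adjusted p = 0.156) and −0.50 (adjusted p = 0.00122). All 18 had a mean below 10 counts per library. SNORD113-3 was called lower in SiNAT10_TGFB against TGFB by voom (−1.60), by edgeR after filterByExpr (−1.53) and without SiNAT10_TGFB replicate 2 (−2.10).

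The proteins that bind and shape snoRNAs moved in both directions. All genes of the next 3 lists had a mean of at least 50 counts. Of all genes in that range, 29.1% were called higher and 33.7% lower in SiNAT10 against con, 30.7% higher and 33.1% lower in SiNAT10_TGFB against TGFB, and 13.5% higher and 16.3% lower in TGFB against con. Of 8 core proteins, 4 rose and 2 fell in SiNAT10 against con, and 2 rose and 2 fell in SiNAT10_TGFB against TGFB. NOP10, a small H/ACA core protein, rose by 0.65 and 0.64 on the log2 scale (adjusted p = 9.50e-08 and 1.25e-07), and SNU13, which binds the C/D box motif, rose by 0.52 and 0.42. NOP58, a C/D core protein, rose by 0.30 against con (adjusted p = 0.00156) and had 0.16 against TGFB (adjusted p = 0.0749). FBL, fibrillarin, fell by 0.21 and 0.29. DKC1, dyskerin, had −0.07 and −0.11, not called, and rose by 0.24 in TGFB against con, where no other core protein was called.

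Of 16 assembly and transport factors, 6 rose and 3 fell in SiNAT10 against con, and 8 rose and 5 fell in SiNAT10_TGFB against TGFB. COIL, coilin of the Cajal body, rose by 0.58 and 0.94. AAR2, on the list though a role in snoRNA assembly was not shown here, rose by 0.58 and 0.68. PIH1D1, of the assembly complex with RUVBL1 and RUVBL2, rose by 0.65 and 0.68, and TCOF1, a nucleolar phosphoprotein, fell by 0.48 and 0.58. Of 20 tested trimming, debranching and decay factors, 10 rose and 3 fell against con, and 11 rose and 3 fell against TGFB. EXOSC1, an exosome subunit, rose by 0.86 and 0.71, EXOSC4, another subunit, rose by 0.97 and 0.72, and DIS3L, a cytoplasmic exosome nuclease, fell by 1.01 and 0.79. The median log2 fold changes of the 3 lists were 0.05, 0.14 and 0.18 against con, and 0.01, 0.20 and 0.19 against TGFB, beside 0.04 and 0.02 over all genes. In TGFB against con, 1 assembly factor rose (TCOF1) and 1 fell (COIL), and 2 decay factors fell (DIS3L and TENT4B).

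Genes listed as long noncoding hosts of snoRNAs moved in both directions as well. Of 24 tested, 9 rose and 4 fell in SiNAT10 against con, 9 rose and 9 fell in SiNAT10_TGFB against TGFB, and 10 rose and 1 fell in TGFB against con. Their median log2 fold changes were 0.19, −0.05 and 0.29, beside 0.04, 0.02 and −0.01 over all genes, and 22 of the 24 had a mean of at least 50 counts. In that range 29.1% of all genes were called higher and 33.7% lower in SiNAT10 against con. The shares were 30.7% and 33.1% in SiNAT10_TGFB against TGFB, and 13.5% and 16.3% in TGFB against con. The table annotates TAF1D and C6orf48 as protein-coding, and without them the counts were 9 and 3, 8 and 8, and 10 and 1 of 22. SNHG15 rose by 0.98 in SiNAT10 against con, beside the 0.97 of SNHG17. SNHG4 was lower by −1.34 and SNHG3 by −0.81 in SiNAT10_TGFB against TGFB, whereas in TGFB against con they rose by 1.55 and 0.69. SNHG18 rose by 0.60 in TGFB against con. These lists were compiled from general knowledge with earlier results of these data in view, and their counts carry no test of the list.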

How the data were processed

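Gene counts and FPKM were deposited by the authors for 12 libraries of LX-2 cells, and only the counts were used here. The submitters' processing notes name fastp, HISAT2 2.2.1 and hg38. The counting tool, annotation, strand setting and RNA and size selection are not stated there, and without strand a snoRNA cannot be separated from a gene on the other strand.

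From the deposited counts, edgeR 4.0.16 in R 4.3.3 took genes with a total of at least 24 counts over all libraries (the total that chose the members), with TMM scaling, 1 quasi-likelihood fit of 4 group means and Benjamini-Hochberg adjustment over 23445 genes. CPM uses the TMM-scaled library size. SE is the absolute log2 fold change divided by the square root of F. The interaction is (SiNAT10_TGFB − SiNAT10) − (TGFB − con). Alternatives were other scalings and filters, DESeq2 1.42.0, voom in limma 3.58.1, a replicate block and omission of each library. The steps were tested on simulated data.

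Named members were those of the cleavage and acetylation list, the 5 with the highest count per length in each class, the up to 4 called ones per class and direction with the smallest p at a mean of at least 10 counts per library, and every called one where 5 or fewer were called. From other lists the up to 3 called genes with the smallest p were named. SNORD9, SNORD113-3, RF00409, RF00415 and the 13 members called in both siRNA comparisons were otherwise named after their values were seen. The members and lists were chosen with earlier results of these data known. Depth was 25877008 to 35132582 counts per library. SDs over 3 libraries and floors of 3 counts cover counting error and the spread between these libraries alone. Same-numbered replicates did not deviate together, so the numbers were not treated as pairs.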

Additional observations from a re-analysis of the deposited data

Results flagged for a closer look

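SNORD12C, a C/D snoRNA gene in ZFAS1, responded differently to TGF-β1 with and without NAT10 siRNA. The difference between the 2 log2 responses was 1.96 (SE 0.53, adjusted p = 0.0362 by edgeR's quasi-likelihood test). The level was 1.36 ± 0.0724 CPM in SiNAT10_TGFB and 1.42 ± 0.262 CPM in SiNAT10, against 0.214 ± 0.0491 CPM in TGFB and 0.873 ± 0.257 CPM in con cells (SD, n = 3 each). Values of the interaction ran from 1.72 to 2.00 in fits that each left out a library and lost the call, and the call was kept in 3 of 12 fits, those without con replicate 3, TGFB replicate 3 or SiNAT10 replicate 2. SNORD12B in the same host had 1.29 ± 0.398, 1.18 ± 0.211, 0.750 ± 0.127 and 0.913 ± 0.0920 CPM in SiNAT10_TGFB, SiNAT10, TGFB and con cells and was not called.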

How the results depend on the processing

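No called value of a member changed sign under the alternatives tried. Of the calls, 3 of 5 in TGFB against con, 16 of 23 in SiNAT10 against con, 10 of 22 in SiNAT10_TGFB against TGFB and 0 of 1 for the interaction were kept under each setting in which the member was tested. With each library left out in turn, counts of members called higher ran from 2 to 4 in TGFB against con, from 19 to 24 in SiNAT10 against con, from 15 to 23 in SiNAT10_TGFB against TGFB and from 0 to 1 for the interaction. Counts called lower then ran from 1 to 2 in TGFB against con, from 0 to 2 in SiNAT10 against con and in SiNAT10_TGFB against TGFB, and from 0 to 1 in SiNAT10_TGFB against SiNAT10. The 2 lower members appeared without SiNAT10 replicate 1 against con and without SiNAT10_TGFB replicate 3 against TGFB. With a total count of at least 120, which left 40 members to test, 12 were higher in SiNAT10_TGFB against TGFB. With genes of at least 1 count, 1 was lower in TGFB against con and 0 were called for the interaction. voom gave 0 for the interaction and 1 lower in SiNAT10_TGFB against TGFB, as did filterByExpr for that comparison (SNORD113-3 in both). The replicate block, with numbers that do not pair the samples (1 of 18 same-numbered pairs had a correlation over 0.1), gave 21 higher in SiNAT10 against con, 19 in SiNAT10_TGFB against TGFB, 3 in TGFB against con and 0 for the interaction. Scaling to library size alone moved the median of all genes to −0.13 in TGFB against con, 0.11 in SiNAT10 against con and 0.16 in SiNAT10_TGFB against TGFB. Higher genes were then 24.0% of all calls in place of 47.3% in TGFB against con, 61.6% in place of 49.6% in SiNAT10_TGFB against TGFB, 37.4% in place of 54.5% in SiNAT10_TGFB against SiNAT10 and 68.1% in place of 51.9% for the interaction, while 26 and 25 members were higher in the siRNA comparisons and none lower. The causes of these shifts were not tested.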
